A study of Mus musculus with 14 samples.

Results

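Induced hepatic stem cells grown as a monolayer (2D-iHepSC) were compared with fetal liver tissue (Fetal-Liver), with 2 libraries per group. The comparison used 4 of the 14 RNA-seq libraries of the series. A gene entered it when log2(count + 1), averaged across these 4 libraries, reached 3. That rule kept 14893 of the 28022 genes in the count table, and 13129 genes fell under it. All libraries are labelled with the mouse strain C57BL/6J. 2D-iHepSC were made by delivering Hnf4alpha and Oct4 (the gene *Pou5f1*) to fibroblasts, which per the methods came from mouse embryos and received the factors by lentivirus. The cells were then kept in a medium that held oncostatin M, basic FGF and VEGF, without the induced endothelial cells (iEC) of the other 2D group. Fetal-Liver is whole tissue of untreated mid-gestation embryos according to the methods, and the labels give no stage or sex. The other 10 libraries (fibroblasts, adult liver and the remaining cultures) are used below only to place single genes.

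The labels do not say that the 2 libraries of a group came from separate cultures or animals, so the p-values measure the spread between these libraries, which may be technical. Total counts were 33001727 and 29186798 in 2D-iHepSC and 28673386 and 25364702 in Fetal-Liver. Between 17237 and 18948 genes per library had at least 1 count. The 2D-iHepSC libraries were close to each other (Pearson's r = 0.999 over genes on log2(CPM + 1)). The Fetal-Liver libraries were farther apart (r = 0.994), and between the groups r was 0.684 to 0.689. In what follows, log2 fold changes are 2D-iHepSC minus Fetal-Liver, ± gives the standard error, n is 2 libraries per group, and a gene is called when its adjusted p in edgeR's quasi-likelihood test is below 0.05. Values of single libraries are raw counts, in the order of the library numbers.

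At mid-gestation the liver is both a developing gland and the main site of blood formation. Its parenchymal cells, the hepatoblasts, secrete alpha-fetoprotein and other plasma proteins and can give rise to hepatocytes and to the cholangiocytes that line bile ducts. The transcription factors *Hnf4a*, *Cebpa* and those of the Foxa family switch on the secretory and metabolic genes of this lineage. A comparison of a cell culture with this tissue therefore sets a converted epithelial line beside a mixture of hepatoblasts, red cell precursors, other blood cells, vessels and stroma. In such bulk RNA, fewer cells of a type and less RNA per cell cannot be told apart.

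The difference was broad. Of the 14893 tested genes, 12392 (83.2%) were called, 5978 (40.1%) higher and 6414 (43.1%) lower in 2D-iHepSC. For 7576 called genes (50.9%) the difference reached 1 on the log2 scale in either direction. The median absolute log2 fold change was 1.04, and the median signed value was -0.05. Very large differences ran mostly one way, since 1923 called genes differed by at least 5 on the log2 scale and 1561 of these were lower in 2D-iHepSC. Likewise, 714 genes had at most 3 counts in each 2D-iHepSC library and at least 100 in each Fetal-Liver library, whereas 76 genes showed the reverse. Because so many genes were called, a call alone says little about a gene, and the lists below are read by direction and size against these shares. Where all libraries of a group were at 0, a fold is given as a lower bound against 3 counts per library, and where they held only 1 to 3 counts, the counts stand without a fold.

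**Figure D1:**
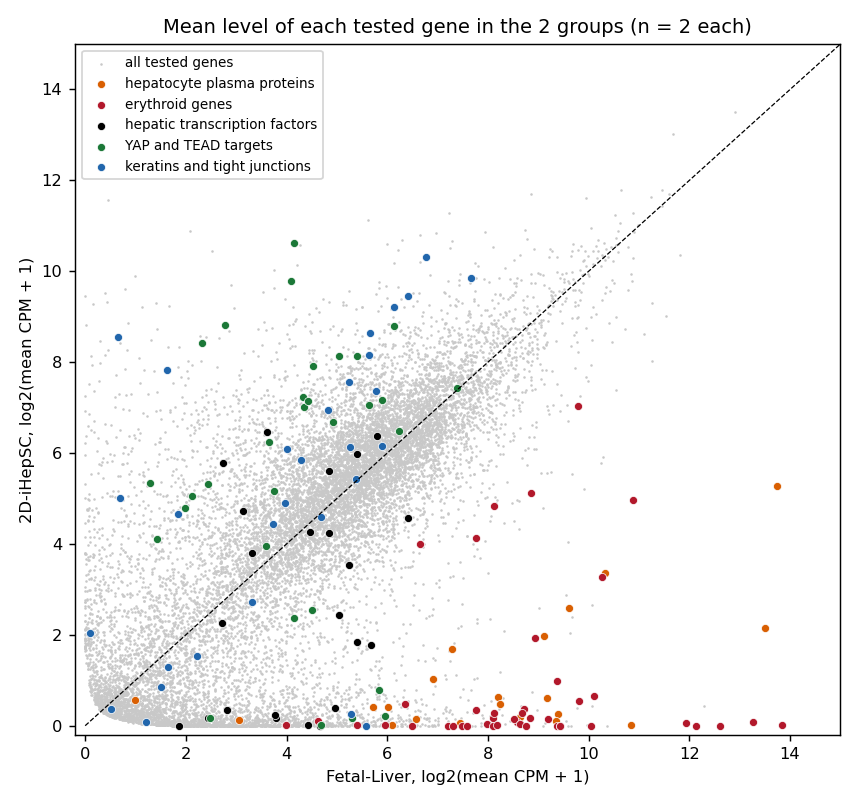
Mean level of each tested gene in Fetal-Liver (x axis) and in 2D-iHepSC (y axis), both as log2(mean CPM + 1) over 2 libraries, with 5 gene lists in colour and the dashed line marking equal levels. Erythroid and plasma protein genes lie along the bottom right, keratins and YAP targets mostly lie above the line, and hepatic transcription factors lie on both sides.

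Stretches upstream of 2 genes are shown because their letters bear on a list described below. They belong to *Ccn1* and *Ankrd1*, targets of the Hippo pathway effector YAP and its DNA-binding partner TEAD that were far higher in 2D-iHepSC. Capitals mark the TEAD motif GGAATG or its reverse complement CATTCC. Both were taken from RefSeq promoters on GRCm38.p6 and are written 5′ to 3′ on the strand of the gene, ending just before the RefSeq start.
Ccn1, chr3:145649986-145650105, minus strand: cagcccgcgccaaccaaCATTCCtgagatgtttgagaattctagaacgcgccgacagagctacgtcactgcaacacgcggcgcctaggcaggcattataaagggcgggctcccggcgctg
Ankrd1, chr19:36119845-36120064, minus strand: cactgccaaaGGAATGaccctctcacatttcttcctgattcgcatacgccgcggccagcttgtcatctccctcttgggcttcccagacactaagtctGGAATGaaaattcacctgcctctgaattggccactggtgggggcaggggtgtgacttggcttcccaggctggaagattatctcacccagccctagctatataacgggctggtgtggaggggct

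*Hnf4a*, the delivered factor and a master regulator of hepatocyte genes, was high in both groups. It had 7670 and 6875 counts in 2D-iHepSC and 4032 and 3179 in Fetal-Liver, a log2 fold change of 0.91 ± 0.08 (adjusted p = 9.5e-06). Both 2D-iHepSC libraries lay above both Fetal-Liver libraries, and the fibroblast libraries had 5 and 2 counts. Reads of the delivered cDNA may be part of this count, which was not tested. The other delivered factor, *Pou5f1*, had 20 and 26 counts in 2D-iHepSC and none in Fetal-Liver or fibroblasts, too few to be tested.

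The further hepatic transcription factors divided. Of 26 listed genes 23 were tested, of which 7 rose and 15 fell, with a median log2 fold change of -1.88 against -0.05 over all tested genes. *Foxa2*, a pioneer factor of endoderm, had 2738 and 2481 counts against 311 and 312 (2.96 ± 0.08, adjusted p = 1.4e-08). Its relative *Foxa3* had no count in 2D-iHepSC and 724 and 631 in Fetal-Liver, so it was at least 242-fold lower. Thus, members of one family went in opposite directions.

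*Cebpb*, a factor of stress and acute phase responses, had 1665 and 1580 counts against 135 and 177 (3.27 ± 0.15). In contrast, *Cebpa*, which drives hepatocyte maturation, fell from 1260 and 1042 counts to 75 and 81 (-3.98 ± 0.13). *Prox1* (-4.37 ± 0.11) and *Hhex* (-2.84 ± 0.11), both needed for the liver bud to grow, fell as well. *Onecut1*, a factor of hepatoblasts and bile ducts, was at least 26.2-fold lower, and *Nr5a2* had 0 and 1 counts against 642 and 501.

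Of the lists of liver function, the secreted plasma proteins had the lowest median. All 21 tested members of 22 listed genes fell, with a median log2 fold change of -8.997. Together they took 3.74% and 3.16% of all counts in Fetal-Liver and 0.00678% and 0.00578% in 2D-iHepSC. *Afp*, the main serum protein of the fetus, had 1172 and 1096 counts in 2D-iHepSC and 432944 and 336523 in Fetal-Liver (-8.50 ± 0.11, adjusted p = 1.3e-09). *Afp* was thus present in both cultures at a steady low level, while adult liver had 105 and 107 counts and fibroblasts had none.

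*Alb*, encoding albumin, was uneven between the cultures, with 210 counts in 2D-iHepSC replicate 1 and 9 in replicate 2, against 384483 and 268280 in Fetal-Liver (-11.65 ± 0.67, adjusted p = 9.0e-07). Its log2 fold change was -15.14 without 2D-iHepSC replicate 1 and -10.78 without replicate 2. *Fga* and *Fgb*, encoding chains of fibrinogen, had 43 and 22 counts in that library and 0 in replicate 2, and *Ambp* had 12 and 0. A wider set of liver genes, chosen by a rule that does not leave out those just named, showed the imbalance. Of genes with at least 10000 counts in each adult liver library, 151 had at most 10 counts in at least 1 of the 2D-iHepSC libraries. These summed to 1068 counts (33.6 CPM) in replicate 1 and 274 (9.68 CPM) in replicate 2, with 23 genes above 10 counts in replicate 1 and 2 in replicate 2, against 27010 and 22150 CPM in Fetal-Liver. Of these genes, 149 were low in replicate 2 and 128 in replicate 1. The 128 chosen on replicate 1 still summed to 13.6 CPM in replicate 1 and 6.64 CPM in replicate 2. Replicate 1 thus held a small excess of RNA of these genes, whose source was not tested. High counts in adult liver were part of the choice, and no genes outside it were compared. *Ttr*, the thyroxine carrier, did not share this imbalance, with 85 and 89 counts against 17528 and 13406 (-7.57 ± 0.13). *Trf*, encoding the iron carrier transferrin, had 8 and 12 against 1423 and 1443 (-7.25 ± 0.18). *Serpina6*, the corticosteroid carrier, had 1 and 0 against 57049 and 45637.

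Genes of lipoprotein assembly differed widely in size. Of 17 tested genes (20 listed), 2 rose and 15 fell, with a median of -7.67 (-6.80 when members at 0 were set to their bound). *Apob*, the scaffold of very low density lipoprotein, had 14328 and 11692 counts against 32216 and 23210 (-1.19 ± 0.11). *Apoa1*, the scaffold of high density lipoprotein, had 10525 and 10243 against 43031 and 36439 (-2.03 ± 0.07). Both were lower than in Fetal-Liver yet abundant in the cultures, and fibroblasts had at most 2 counts of either.

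*Apoe* had 167 and 150 counts against 32983 and 27304 (-7.67 ± 0.09), and *Apoa2* had 2 and 1 against 16440 and 14779. *Mttp*, the transfer protein that loads lipid onto *Apob*, fell by 3.58 ± 0.10. *Tm6sf2*, which acts in lipid loading, was 1 of the 2 genes that rose (1.70 ± 0.21).

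**Figure D2:**
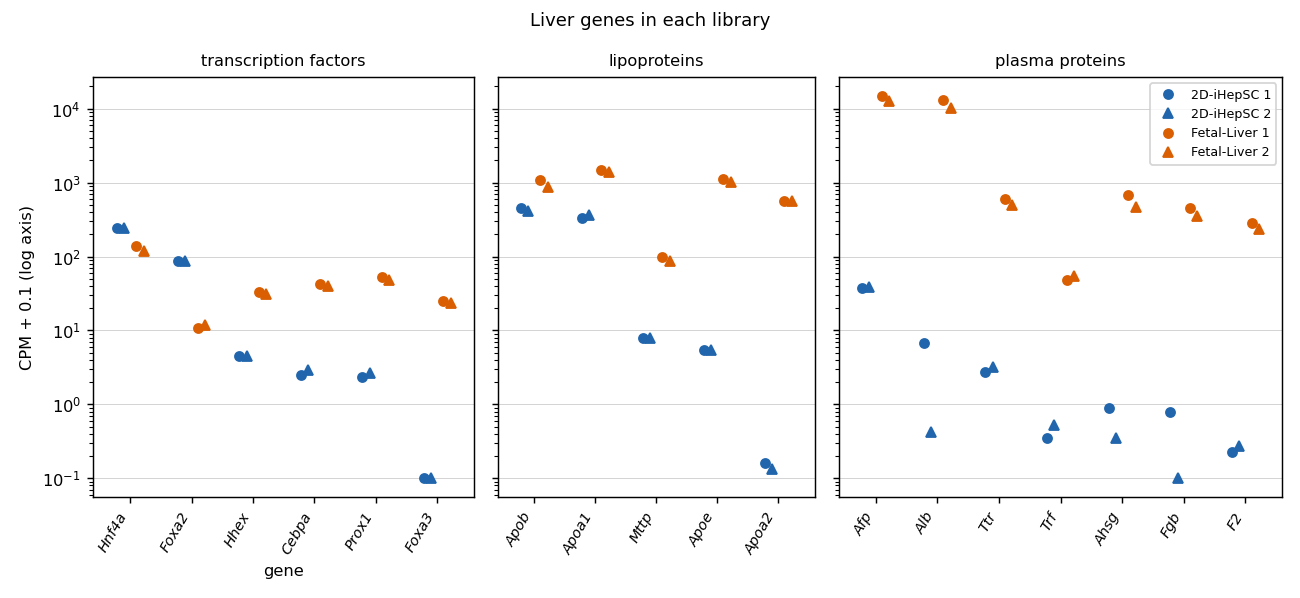
Level of 18 liver genes in each of the 4 libraries, as CPM + 0.1 on a log axis, so that a point at the bottom line had no count. *Hnf4a* and *Foxa2* lie higher in 2D-iHepSC (blue) than in Fetal-Liver (orange), *Apob* and *Apoa1* differ less than the other lipoprotein genes plotted, and the plasma proteins lie far apart, with *Alb* and *Fgb* uneven between the 2 cultures.

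In the coagulation and complement list, 27 of 31 tested genes (34 listed) fell and 3 rose, with a median of -8.36 (-7.53 with members at 0 set to their bound). *F2*, encoding prothrombin, had 4 and 5 counts against 8304 and 6356 (-10.73 ± 0.19), and *C3*, the central complement protein, had 192 and 189 against 24810 and 17492 (-6.89 ± 0.15). *C8b* was at least 285-fold lower. *F3*, tissue factor, which starts clotting on cell surfaces, rose by 4.77 ± 0.18 and *Tfpi*, its inhibitor, by 2.29 ± 0.07. *Pros1*, a cofactor of anticoagulant protein C, rose by 0.38 ± 0.08, a call that was lost without 2D-iHepSC replicate 1 (adjusted p = 0.052) and with upper quartile scaling (0.10, adjusted p = 0.26).

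In the urea cycle and gluconeogenesis list, 11 of 12 tested genes (15 listed) fell, with a median of -1.42. The first enzyme of the urea cycle, *Cps1*, had 17 and 3 counts against 157 and 104 (-3.80 ± 0.48, and -3.10 without 2D-iHepSC replicate 2). Without 2D-iHepSC replicate 1, only 3 counts of *Cps1* were left in that group, so no fold is given. *Otc*, the next enzyme of the cycle, had 1 and 0 against 1393 and 1072. Both enzymes of nitrogen disposal were thus low in the cultures. The 1 gene that rose was *Pck2*, the mitochondrial form of the gluconeogenic carboxykinase (1.82 ± 0.08), while the cytosolic form *Pck1* was under the filter, with 12 and 0 counts against 26 and 8.

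Of 19 tested genes of amino acid catabolism (21 listed), 13 fell and 5 rose, with a median of -5.15. *Ftcd*, which acts in histidine breakdown, had 1 and 0 counts against 1650 and 1251, whereas *Cth*, the last step of cysteine synthesis, rose from 908 and 696 to 3593 and 3339 (2.01 ± 0.09). *Tat* was near 0 in both groups, with 11 and 9 counts against 8 and 11. In the bile acid list only 14 of 25 genes were tested, 4 rose and 9 fell, with a median of -2.34. When the filter was raised from 3 to 5, only 8 were tested, 4 rose and 3 fell, and the median turned to 0.79. The summed level of the list was higher in 2D-iHepSC, at 1100 and 1084 CPM against 304 and 254 CPM. The exporters *Abcc4* and *Abcc3*, described below, held most of it there, with 18943 and 13062 of 34923 counts in 2D-iHepSC replicate 1. In Fetal-Liver replicate 1 they had 520 and 706 of 8911 counts. *Cyp7a1*, the rate-limiting enzyme of bile acid synthesis, was under the filter with 1 and 0 counts against 18 and 14.

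The uptake carrier *Slc10a1* had 13 and 6 counts against 46 and 21 (-1.90 ± 0.49, adjusted p = 0.0069), a call that was lost without 2D-iHepSC replicate 2 (adjusted p = 0.063). The canalicular export pump *Abcb11* fell by 4.92 ± 0.23. The exporters *Abcc4* and *Abcc3*, which sit on the blood side of hepatocytes, were higher, with 18943 and 16418 counts against 520 and 409 for *Abcc4* (5.15 ± 0.09) and 4.29 ± 0.12 for *Abcc3*. *Cyp27a1*, the first enzyme of the alternative route, rose by 3.50 ± 0.10.

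Enzymes of drug metabolism moved both ways, with 14 of 30 tested genes (40 listed) higher (46.7%, against 40.1% of all tested genes). Another 9 were lower (30%, against 43.1%), and the median was 0.21. The summed level of the list was 3032 and 3073 CPM in 2D-iHepSC against 826 and 749 CPM in Fetal-Liver. *Ephx1*, a microsomal epoxide hydrolase, had 18805 and 16099 counts against 209 and 169 (6.42 ± 0.09). *Gsta1* had 14304 and 12733 against 1 and 0, although reads of the alpha-class glutathione transferases can be split between close copies. *Gsta4* rose by 3.82 ± 0.07. The cytochromes that mark mature hepatocytes were low in both groups. *Cyp2e1* had 19 and 0 counts against 4 and 1, *Cyp3a11* had 7 and 0 against 20 and 6, and neither was tested. *Cyp3a16* had none against 76 and 56, at least 23.4-fold lower. *Cyp1a1*, induced by aromatic compounds, had 8 and 5 counts against 19 and 4 (-0.90 ± 0.70, adjusted p = 0.26), and was called without Fetal-Liver replicate 2 (adjusted p = 0.0089).

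Fatty acid oxidation was mostly lower (15 of 23 tested genes fell and 6 rose, of 24 listed, median -0.62). Of 23 cholesterol synthesis genes 12 rose (52.2%, against 40.1% of all tested genes) and 5 fell, with a median of 0.18. *Cpt1a*, which admits fatty acids to mitochondria, rose from 1065 and 905 to 4734 and 4426 (2.12 ± 0.07). *Fabp1*, the liver fatty acid carrier, had 3 and 0 against 1783 and 1568. Among sterol genes *Lss* (1.20 ± 0.09) and *Sqle* (0.98 ± 0.06) rose, and *Dhcr7* (-1.14 ± 0.07) fell. The sterol counts depended on scaling, since upper quartile scaling gave 7 higher and 11 lower and a median of -0.09, and library totals alone gave 10 and 9. Upper quartile scaling gave the drug metabolism list a median of -0.06.

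**Figure D3:**
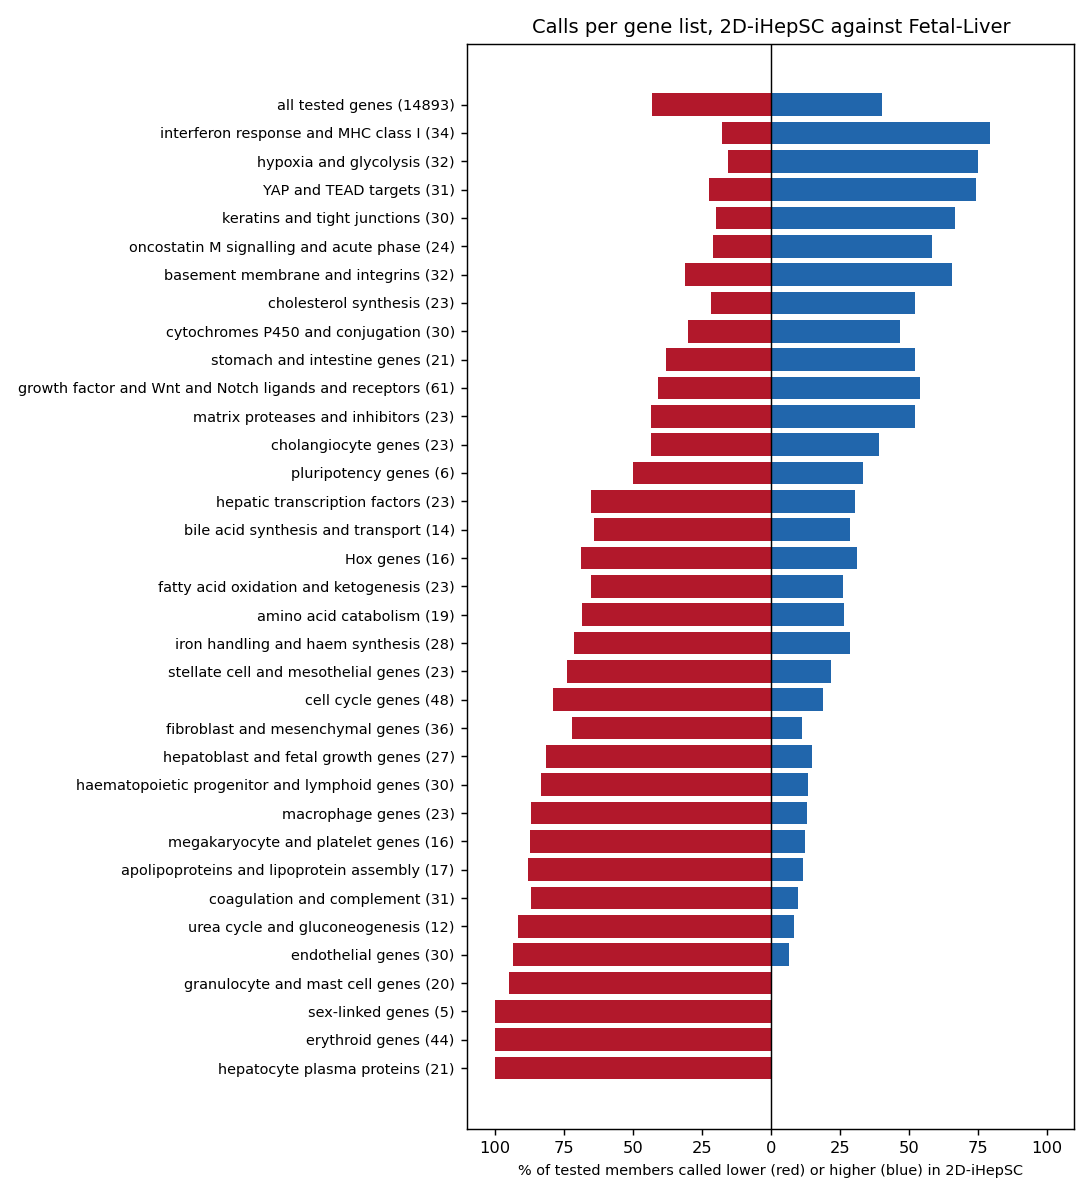
Share of tested members called lower (red, leftward) and higher (blue, rightward) in 2D-iHepSC for 34 gene lists, in percent, with the number of tested members in parentheses and all 14893 tested genes at the top. Lists near the bottom, such as plasma protein and erythroid genes, had no member called higher, while interferon, hypoxia, YAP and keratin lists were mostly higher than the background of 40.1%.

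Genes of hepatoblasts and fetal growth held some of the clearest absences. Of 27 listed genes, all tested, 22 fell and 4 rose, with a median of -7.41 (-7.13 with members at 0 set to their bound). *Dlk1*, the surface protein used to isolate hepatoblasts, had no count in either 2D-iHepSC library and 38125 and 35753 in Fetal-Liver, at least 13197-fold lower. *Gpc3*, a fetal glypican, was likewise at 0 against 15469 and 14831 (at least 5416-fold), and *Lin28b*, an RNA-binding protein of fetal cells, at 0 against 2107 and 1658 (at least 670-fold). These genes separated the groups completely.

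Several of the genes in that list are imprinted, that is, expressed from one parental copy. No separate list of imprinted genes was tested, and some of those named here were picked after their values were seen. *Igf2*, a fetal growth factor, had none against 3221 and 3093 (at least 1129-fold lower). *H19*, the noncoding RNA beside it on chromosome 7, had 12 and 9 counts against 149262 and 132415 (-13.80 ± 0.11, adjusted p = 8.3e-10). On chromosome 12, *Meg3* (at least 8045-fold) and *Rian* (at least 7638-fold), noncoding RNAs of the *Dlk1* region, were at 0 in both cultures.

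*Peg3* had 9 and 7 counts against 13377 and 14588 (-10.86 ± 0.18), and *Grb10* had 10 and 9 against 24025 and 24495 (-11.41 ± 0.14). *Plagl1* had 3 and 6 against 11567 and 11244 (-11.37 ± 0.16). Without 2D-iHepSC replicate 2, only 3 counts of *Plagl1* were left in that group, so no fold is given. *Mest* (-9.15 ± 0.19) and *Cdkn1c* (-7.13 ± 0.20), the latter an inhibitor of cyclin-dependent kinases, fell too. The fibroblast libraries, the cell type from which 2D-iHepSC derive, had 103694 and 84927 counts of *Peg3*, 126152 and 105871 of *H19* and 32212 and 28018 of *Meg3*. These low values were therefore shared neither by Fetal-Liver nor by fibroblasts. Adult liver was low as well, with 723 and 730 counts of *Peg3*, 14 and 19 of *H19*, 65 and 73 of *Meg3* and 38 and 47 of *Cdkn1c*, which had 38 and 32 in 2D-iHepSC. The whole hepatoblast and growth list took 0.0900% and 0.0901% of counts in adult liver, 0.193% and 0.191% in 2D-iHepSC and 1.17% and 1.23% in Fetal-Liver. In fibroblasts the list took 1.33% and 1.32%, so a high share was not particular to Fetal-Liver. *Igf2r*, which is imprinted with the opposite parental copy to *Igf2*, had 15110 and 12721 counts against 12764 and 12312 (0.04 ± 0.07, adjusted p = 0.56), and its sign changed with the scaling. Growth genes that rose were *Hmga2*, a chromatin protein of fetal cells (2.77 ± 0.07), *Met*, the hepatocyte growth factor receptor (2.61 ± 0.07), and *Cdh1*, encoding E-cadherin (1.54 ± 0.08). *Igf1*, the growth factor of later life, was at 0 against 1094 and 1292.

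**Figure D4:**
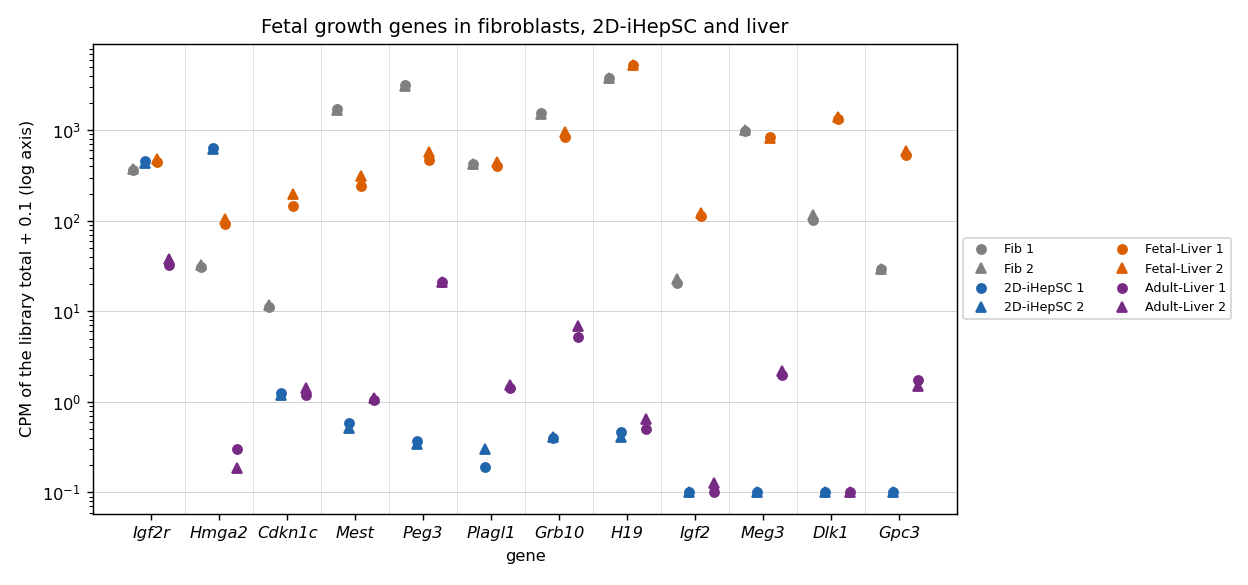
Level of 12 fetal growth genes in the libraries of fibroblasts (Fib), 2D-iHepSC, Fetal-Liver and Adult-Liver, 2 each, as CPM of the library total + 0.1 on a log axis, with a point at the bottom line standing for no count. For *Mest*, *Peg3*, *Plagl1*, *Grb10*, *H19* and *Meg3* the 2D-iHepSC points (blue) lie near the bottom, below both fibroblasts and Fetal-Liver, whereas *Igf2r* and *Hmga2* stay high.

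Across chromosomes, the 500 tested genes of chromosome 12 had a median log2 fold change of -0.72, with 125 higher and 300 lower. The 721 genes of chromosome 10 had a median of 0.35, with 372 higher and 234 lower.

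Epithelial genes were the opposite case. Of 30 tested keratin and junction genes (32 listed), 20 rose and 6 fell, with a median of 1.61. *Krt19*, a keratin of bile ducts and liver progenitors, had 31981 and 30227 counts against 354 and 346 (6.37 ± 0.09, adjusted p = 1.3e-09). *Krt8* (39452 and 37176 against 3225 and 2795, 3.57 ± 0.07) and its partner *Krt18* (3.06 ± 0.07), the keratins of simple epithelia including hepatocytes, rose less. Both 2D-iHepSC libraries were far above both Fetal-Liver libraries for each of these.

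Keratins of stratified epithelia were present as well. *Krt14* had 7013 and 6627 counts against 56 and 60 (6.77 ± 0.10), *Krt80* rose by 5.67 ± 0.15, and *Krt6a*, which has close copies, had 3853 and 3404 against none (at least 1123-fold higher). Claudins, which set the permeability of tight junctions, split. *Cldn2*, a pore-forming member, had 11916 and 10528 counts against 17 and 15 (9.34 ± 0.11), while *Cldn1*, a sealing member, had none against 1533 and 1080 (at least 463-fold lower). *Ocln* rose by 0.77 ± 0.10.

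Of 23 tested cholangiocyte genes (25 listed), 9 rose (39.1%) and 10 fell (43.5%), near the 40.1% and 43.1% of all tested genes. The median was -0.07, and it turned to 0.037 without 2D-iHepSC replicate 1 and to 0.026 without Fetal-Liver replicate 2. The summed level of the list was higher in 2D-iHepSC, at 4184 and 4237 CPM against 2195 and 1925 CPM. *Krt7* (4.70 ± 0.17), *Krt23* (9.13 ± 0.15) and *Itgb6* (6.15 ± 0.21, and 6.90 without Fetal-Liver replicate 2) rose, and *Aqp1* (-5.80 ± 0.16), *Prom1* (-7.82 ± 0.24) and *Cldn7* (-4.10 ± 0.33) fell. *Epcam*, a surface marker of liver progenitors, had 475 and 491 counts against 459 and 483 (-0.07 ± 0.12, adjusted p = 0.63), and was called lower with upper quartile scaling (-0.34, adjusted p = 0.039). *Sox9*, a factor of ductal progenitors, had 253 and 235 against 131 and 230 (0.32 ± 0.28, adjusted p = 0.31), with Fetal-Liver replicate 2 level with the cultures, and without that library it was called (0.85). Markers of hepatic progenitors thus divided, with *Krt19* higher, *Epcam* and *Sox9* uncalled, *Prom1* lower and *Dlk1* at 0 in the cultures.

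Adhesion to the basement membrane and YAP targets rose together with the keratins. Of 32 tested basement membrane and integrin genes (33 listed), 21 rose and 10 fell, with a median of 1.50. *Itgb4*, the integrin of hemidesmosomes, had 18740 and 17201 counts against 59 and 63 (8.10 ± 0.10). The laminin chains *Lama5* (47882 and 45117 against 1561 and 1908, 4.63 ± 0.14) and *Lamb3* (6.10 ± 0.13) also rose. *Nid1*, which links laminin to collagen and is made largely by stroma, had 8 and 8 against 4329 and 4111 (-9.12 ± 0.12), *Lama4* had 1 and 0 against 502 and 967, and *Itga8* 2 and 1 against 725 and 871.

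Of 31 YAP and TEAD targets, all tested, 23 rose and 7 fell, with a median of 2.69. Their summed level was 5891 and 5765 CPM in 2D-iHepSC against 846 and 985 CPM in Fetal-Liver. *Ccn1* had 27666 and 25112 counts against 432 and 465 (5.77 ± 0.10), *Ccn2* had 14265 and 12757 against 117 and 204 (6.28 ± 0.21), and *Myof* had 51097 and 43767 against 445 and 485 (6.56 ± 0.10). Fibroblasts also had 19372 and 16002 counts of *Ccn1*. *Ankrd1* had 11070 and 9492 against 25 and 188 (6.47 ± 0.49), and its log2 fold change was 8.63 without Fetal-Liver replicate 2 and 5.59 without replicate 1. *Tead2*, a partner of YAP in embryonic cells, had 4 and 5 against 1494 and 1883 (-8.62 ± 0.30).

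Of the 31 listed targets, 18 had a RefSeq promoter, and in 9 of them (50%) the letters GGAATG occurred on either strand in the 250 bases before the start, compared with 12.6% of all 22862 promoters. Other motifs were searched as well, on both strands of the same window. In 28 erythroid promoters the GATA letters AGATAA occurred in 7 (25%, against 10.4% of all promoters) and the CACC box CCACACCC in 1 (3.57% against 3.21%). A match of letters is a description of the window and not a measured binding site. The list was drawn up as YAP and TEAD targets, and 23 of its 31 members (74.2%) were called higher. Members with and without the motif were not compared, so the calls do not test the motif. Each of the 9 genes with GGAATG was called higher. Beside *Ccn1* and *Ankrd1* they were *Ajuba* (1.79 ± 0.09), *Amotl2* (3.14 ± 0.11), *Axl* (2.67 ± 0.07), *Crim1* (2.69 ± 0.09), *Ptpn14* (3.45 ± 0.11), *Vgll3* (3.27 ± 0.17) and *Yap1* itself (1.28 ± 0.11). In the stretches above, the motif lies 103 bases before the start of *Ccn1* and 210 and 123 bases before that of *Ankrd1*. The stretch of *Ankrd1* lies inside the GENCODE gene model, which begins farther upstream than the RefSeq start.

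Of 23 tested matrix proteases and inhibitors (26 listed), 12 rose (52.2%, against 40.1% of all tested genes) and 10 fell (43.5%, against 43.1%). The median was 0.99. *Plaur*, the urokinase receptor, had 3764 and 3528 counts against 59 and 64 (5.78 ± 0.10). *Serpinb5*, an epithelial serpin, had 120 and 116 counts against none (at least 36.6-fold higher), and *Timp1* rose by 2.50 ± 0.24. The stromal metalloproteinases ran the other way, with *Mmp14* at 0 against 2528 and 2967 (at least 987-fold lower) and *Mmp2* with 4 and 4 against 1646 and 2525 (-9.10 ± 0.45).

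**Figure D5:**
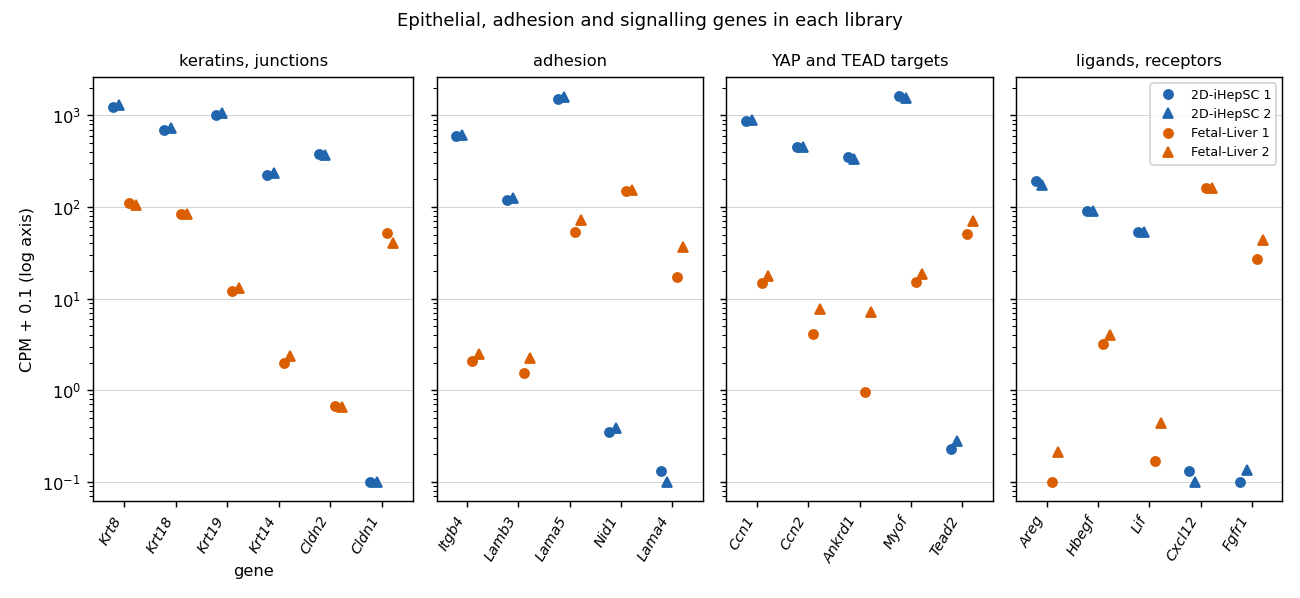
Level of 21 epithelial, adhesion and signalling genes in each of the 4 libraries, as CPM + 0.1 on a log axis, so that a point at the bottom line had no count. In each panel the 2D-iHepSC libraries (blue) coincide and are far above Fetal-Liver (orange) for most genes, while *Cldn1*, *Nid1*, *Lama4*, *Tead2*, *Cxcl12* and *Fgfr1* lie far below.

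Among ligands and receptors of growth factor, Wnt and Notch signalling, 33 of 61 tested genes (68 listed) rose (54.1%, against 40.1% of all tested genes). In this list 25 fell (41%, against 43.1%), and the median was 0.56. *Areg*, a ligand of the EGF receptor, had 6052 and 4919 counts against 0 and 3, its relatives *Btc* and *Hbegf* rose by 6.55 ± 0.17 and 4.68 ± 0.10, and the receptor *Egfr* had 3897 and 3235 against 295 and 453 (3.14 ± 0.19). *Wnt7b* had 2091 and 1956 against 33 and 76 (5.10 ± 0.24, and 5.88 without Fetal-Liver replicate 2), and *Jag1*, the Notch ligand of bile duct formation, rose by 1.07 ± 0.10. *Lif* had 1705 and 1510 against 2 and 9 (8.055, and 7.28 without Fetal-Liver replicate 1). Without Fetal-Liver replicate 2, only 2 counts of *Lif* were left in that group, so no fold is given. Members that fell included *Cxcl12*, the chemokine that holds blood progenitors (1 and 0 against 4671 and 4280), *Fgfr1* (0 and 1 against 784 and 1149) and *Rspo3*, which boosts Wnt signals (at least 130-fold lower).

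Of 24 tested genes of the oncostatin M pathway and of the acute phase (30 listed), 14 rose and 5 fell, with a median of 0.97. The list took 0.0969% and 0.0976% of counts in 2D-iHepSC, 0.0664% and 0.0647% in Fetal-Liver and 0.419% and 0.412% in fibroblasts. The culture medium held oncostatin M, and its part in these values was not tested. The receptor *Osmr* had 314 and 279 counts against 24 and 33 (3.26 ± 0.22) and the feedback inhibitor *Socs3* 1751 and 1716 against 644 and 542 (1.45 ± 0.08). *Cxcl2* had 298 and 244 counts against 1 and 0, and *Orm1*, an acute phase protein, 103 and 62 against 1 and 0. *Crp* had 2 and 0 against 398 and 305. *Lcn2* had 239 and 216 against 311 and 197 (-0.25 ± 0.19, adjusted p = 0.24) and was called lower without Fetal-Liver replicate 2 (adjusted p = 0.00033) and with upper quartile scaling (-0.52, adjusted p = 0.032).

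Among lists with more than 1 tested gene, interferon response and MHC class I had the largest share of increases, since 27 of 34 genes rose and 6 fell, with a median of 1.64. *Ifi44* had 1612 and 1888 counts against 6 and 9 (7.75 ± 0.25), and *Ifit1* (5.75 ± 0.15) and *Rsad2* (5.73 ± 0.12), both induced by interferon, followed. *B2m*, the light chain of class I molecules, rose by 1.44 ± 0.06 and the heavy chain *H2-K1* by 0.88 ± 0.06. Not every class I gene did so, as *H2-Q7* had 1 and 1 counts against 629 and 593 and *H2-T23* had 16 and 7 against 1033 and 813 (-6.41 ± 0.22, and -7.03 without 2D-iHepSC replicate 1). Reads of these near-identical genes can be assigned to the wrong copy.

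Hypoxia and glycolysis genes were mostly higher (24 of 32 tested rose and 5 fell, of 33 listed, median 1.03). *Car9* had 2892 and 2869 counts against 65 and 75 (5.26 ± 0.12), *Car12* rose by 5.52 ± 0.19, and *Ldha* by 0.91 ± 0.06. The pyruvate kinase genes moved in opposite directions. *Pkm*, the form of proliferating cells, had 103958 and 95629 counts against 12913 and 12781 (2.85 ± 0.07), and *Pklr*, the form of liver and red cells, had 150 and 153 against 16160 and 12752 (-6.67 ± 0.11). *Slc2a1*, the glucose transporter that red cell precursors also use, fell by 0.82 ± 0.11.

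Cell cycle genes were mostly lower, with 38 of 48 falling and 9 rising and a median of -1.30. *Mki67*, present in cycling cells, had 13188 and 10501 counts against 69748 and 53088 (-2.48 ± 0.10). *Mcm2*, of the replication helicase, fell by 2.58 ± 0.07, *Ccnb1* by 0.93 ± 0.08, and *Ccne1*, the cyclin of S phase entry, had 159 and 162 against 5263 and 4727 (-5.06 ± 0.09). Those that rose most were inhibitors of cyclin-dependent kinases, and *Mdm2* and *Ccnd1* followed. *Cdkn1a* had 13266 and 12048 counts against 255 and 288 (5.44 ± 0.11), and *Cdkn2a* 92 and 104 against none (at least 30.5-fold higher). *Cdkn2b* had 818 and 772 against 1 and 8 (7.32 ± 0.33, and 6.43 without Fetal-Liver replicate 1). Without Fetal-Liver replicate 2, only 1 count of *Cdkn2b* was left in that group, so no fold is given. *Mdm2*, which restrains p53, rose by 3.72 ± 0.09, and *Ccnd1*, the cyclin of the response to growth factors, by 3.01 ± 0.06. Erythroid genes took 5.98% and 5.71% of the counts in Fetal-Liver, and the part of red cell precursors in the cell cycle values was not tested.

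Genes of stomach and intestine were in part active. Of 37 listed genes 21 were tested. Of these, 11 rose (52.4%, against 40.1% of all tested genes) and 8 fell (38.1%, against 43.1%). The median was 2.71, which turned to -0.79 without the filter on low counts. *Cdx2*, the intestinal homeobox factor, had 1094 and 1002 counts against 43 and 23 (4.88 ± 0.18). *Lgals4* (7.00 ± 0.10) and *Ehf* (6.62 ± 0.11), both of gut epithelium, rose, and *Gkn2*, a stomach protein, had 192 and 213 counts against 0 and 1. *Barx1*, a factor of stomach mesenchyme, was at least 87.8-fold lower, *Muc6* fell by 5.92 ± 0.27, and *Sox2* had none against 67 and 44.

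Of 18 pluripotency genes only 6 were tested, of which 2 rose and 3 fell, with a median of -3.93 (-2.80 with members at 0 set to their bound). With that raised filter 3 were tested, 2 rose and 0 fell, and the median turned to 3.49. Their summed level was 282 and 276 CPM in 2D-iHepSC against 60.01 and 59.49 CPM in Fetal-Liver, and 9 of the 18 were at 0 in both cultures. *Nanog* had no count except 3 in Fetal-Liver replicate 2, and *Zfp42* had none in any of the 4 libraries. *Klf4* (3884 and 3554 counts against 141 and 135, 4.65 ± 0.08) and *Tfcp2l1* (4546 and 3834 against 381 and 269, 3.59 ± 0.11), which epithelia also use, rose and made up most of that sum, while *Sall4* had 1 and 0 counts against 420 and 394 and *Lin28a* was at least 85.3-fold lower. Of the Hox genes, which record position along the body axis, 16 of 39 were tested, 5 rose and 11 fell, with a median of -2.32. All 5 that rose belong to the HoxA cluster, with *Hoxa13* at 72 and 74 counts against 1 and 0, *Hoxa10* at 401 and 336 against 14 and 5 (5.16 ± 0.29, and 5.99 without Fetal-Liver replicate 1) and *Hoxa9* higher by 3.16 ± 0.15. *Hoxb5* was at least 27.2-fold lower.

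Mesenchymal genes were mostly lower, with 26 of 36 tested genes (40 listed) falling and 4 rising, and a median of -4.54. *Col1a1* had 93 and 93 counts against 16349 and 26916 (-7.98 ± 0.35), *Col1a2* 2 and 2 against 14085 and 22568, and *Col3a1* 0 and 1 against 22676 and 32441. *Pdgfra* fell by 6.90 ± 0.29. *Vim*, an intermediate filament of mesenchyme and of cultured cells, rose instead, from 6358 and 7227 to 58862 and 53528 (2.94 ± 0.11), as did *Snai1* (0.95 ± 0.20). *Twist1* had 39 and 42 counts against 43 and 125 (-1.18 ± 0.50, adjusted p = 0.058), and its call depended on the fit. It was called with the replicate block (-1.05, adjusted p = 0.0053), without a filter, with a filter of 5, with upper quartile scaling, with all 14 libraries and without Fetal-Liver replicate 1 (-1.81), and was -0.14 without Fetal-Liver replicate 2. Fetal-Liver replicate 2 held more stromal RNA than replicate 1, with a summed fibroblast list of 7156 against 5092 CPM, compared with 2739 and 2765 CPM in 2D-iHepSC.

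RNA of red cell precursors was far lower in the cultures than in the tissue. All 44 tested erythroid genes (47 listed) fell, with a median of -11.73 (-10.87 with members at 0 set to their bound). Their sum was 58456 and 54501 CPM in Fetal-Liver and 268 and 270 CPM in 2D-iHepSC, and 14 of the 45 genes found in the table were at 0 in both cultures. The adult globin *Hbb-bt* had none against 182068 and 168059 (at least 62520-fold lower), *Hba-a1* and *Hbb-bs* had at most 4 counts in 2D-iHepSC, *Hba-a2* had none, and reads of globin copies can be split between them. The embryonic *Hbb-y* (at least 10475-fold lower), the membrane protein *Kel* (at least 6912-fold) and *Hemgn* (at least 6849-fold) were at 0 in 2D-iHepSC as well. *Gata1* had 1 and 1 counts against 7591 and 6557, *Klf1* 9 and 4 against 12563 and 10441, and *Epor*, the erythropoietin receptor, 10 and 6 against 6527 and 5599.

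Iron and haem genes followed in part (20 of 28 fell and 8 rose, median -2.77). *Alas2*, the first haem enzyme in red cells, had 17 and 5 counts against 34628 and 25198 (-11.49 ± 0.24, and -12.52 without 2D-iHepSC replicate 1), and *Alas1*, its form in other tissues, had 3768 and 3293 against 1184 and 1102 (1.52 ± 0.06). The transferrin receptor *Tfrc* fell by 4.40 ± 0.09. *Cp*, ceruloplasmin, was a secreted protein that rose, with 3994 and 3494 counts against 154 and 88 (4.85 ± 0.15).

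Other blood lists gave the same direction. Of 16 tested megakaryocyte genes (17 listed) 14 fell and 2 rose (median -6.59, or -6.31 with members at 0 set to their bound), and of 23 macrophage genes (25 listed) 20 fell and 3 rose (median -7.58, or -6.38). Of 20 granulocyte and mast cell genes (23 listed) 19 fell and 0 rose (median -8.88, or -6.57), and of 30 progenitor and lymphoid genes (34 listed) 25 fell and 4 rose (median -6.68, or -4.71). Many lineage markers were low or at 0 in the cultures. *Pf4* of platelets fell by 8.13 ± 0.14 and *Itga2b*, the platelet integrin, fell by 6.11 ± 0.14, *Mpo* of granulocytes had none against 6547 and 4952 (at least 2043-fold lower), and *C1qa* (at least 336-fold) and *Adgre1* (at least 369-fold) of macrophages were at 0 in both cultures. *Ptprc*, which marks white cells, had 1 and 1 counts against 572 and 406, *Spi1* was at least 195-fold lower, and *Csf1r* fell by 6.11 ± 0.13. The sums of the lists were closer than these markers, and some listed genes rose. *Selp* had 11008 and 9595 counts against 22 and 13 (9.09 ± 0.12), *Cd14* 2114 and 1997 against 27 and 23 (6.25 ± 0.12), *Procr* rose by 5.70 ± 0.09 and *Runx1* by 1.83 ± 0.07. The macrophage genes *Cd68* (809 and 674 counts against 535 and 432, 0.51 ± 0.10) and *Hmox1*, a haem-degrading enzyme of many cells (1.33 ± 0.09), rose too. *Cd3e*, a chain of the T cell receptor complex, had 52 and 45 counts against 1 and 0. In CPM, the granulocyte list summed to 2.87 and 2.22 in 2D-iHepSC against 581 and 479 in Fetal-Liver, the macrophage list to 561 and 559 against 1203 and 1030, the megakaryocyte list to 450 and 437 against 992 and 802, and the progenitor list to 359 and 364 against 1167 and 1034. *Selp* alone held 11008 and 9595 of the megakaryocyte list's 14298 and 12377 counts in 2D-iHepSC. At 0 in both cultures were 6 granulocyte, 9 macrophage, 5 megakaryocyte and 8 progenitor genes.

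Of 30 tested endothelial genes (31 listed), 28 fell and 2 rose, with a median of -6.27 (-5.79 with members at 0 set to their bound). The summed level of the list was 693 and 691 CPM in 2D-iHepSC and 1453 and 1371 CPM in Fetal-Liver, and 3 members were at 0 in both cultures. *Pecam1* had 5 and 5 counts against 1079 and 1042 (-7.80 ± 0.17), *Kdr*, the VEGF receptor, 25 and 10 against 2027 and 1817 (-6.87 ± 0.18, and -7.59 without 2D-iHepSC replicate 1), and *Stab2* of sinusoids fell by 8.51 ± 0.23. In contrast, *Cdh5*, the cadherin of endothelial junctions, had 16261 and 14322 against 1943 and 1882 (2.89 ± 0.07), and *Sox17* had 4308 and 4004 against 123 and 122 (4.98 ± 0.09). The listed vessel genes thus did not share 1 direction. *Cdh5* and *Sox17* held most of the list's 21999 and 19572 counts in 2D-iHepSC, so its summed level there says little about the other members.

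Stellate cell and mesothelial genes fell in 17 of 23 cases and rose in 5, with a median of -6.11 (-5.86 with members at 0 set to their bound). *Reln* had 1 and 1 counts against 8424 and 6812, *Wt1* fell by 6.21 ± 0.35, and *Lrat*, which stores vitamin A in stellate cells, had 1 and 0 against 147 and 107. *Msln*, a surface protein of mesothelium and of some epithelia, had 58315 and 55179 against 89 and 92 (9.19 ± 0.10). *Msln* and *Krt19*, which is also in this list, made up most of its summed level in 2D-iHepSC, which was 3776 and 3960 CPM against 876 and 929 CPM.

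Several of the genes with the largest increase belong to none of the lists, while *Gsta1*, described above with drug metabolism, is among them. *Gpr179* (chromosome 11, 97332109 to 97352077 on GRCm38), a receptor of the retina, had 96639 and 85411 counts against 11 and 10 (12.96 ± 0.11, adjusted p = 8.3e-10) and 108 and 110 in fibroblasts. It was among the most abundant genes of 2D-iHepSC, beside *Eef1a1* of translation (374407 and 322882 counts against 230616 and 196491). Genes at 0 in both Fetal-Liver libraries included *Serpinb9b* (22840 and 19089 counts, at least 6476-fold higher), *Ifi202b* (at least 1401-fold), *Prl*, encoding prolactin (at least 569-fold), *Clca3b* (at least 364-fold) and *Car6*, a salivary carbonic anhydrase (at least 290-fold). *Lncenc1*, a noncoding RNA, had 20147 and 17368 against 2 and 4. *Serpinb9b*, *Ifi202b*, *Prl* and *Clca3b* belong to families of near-identical genes, so reads may come from a relative.

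A small set of genes separated the fibroblast and culture libraries from the liver libraries. The cultures were made from converted fibroblasts, so growth in culture and fibroblast origin cannot be told apart here. In all, 8 genes had at most 30 counts in each of the 4 liver libraries and at least 1000 in each of the 10 fibroblast and culture libraries, and 6 of them are annotated as processed pseudogenes. *Rps2-ps10* had 24552 and 22336 counts in 2D-iHepSC and 11139 and 9332 in fibroblasts, against 14 and 26 in Fetal-Liver. *Rps26-ps1* had 9036 and 7959 against 6 and 11, and *Eno1b*, a copy of an enolase gene, 8232 and 8513 against 3 and 2. The reverse pattern held for 63 genes, of which 0 were processed pseudogenes. Among the 154 processed pseudogenes tested, 54 were higher (35.1%, against 40.1% of all tested genes) and 16 lower (10.4%, against 43.1%). The other 84 were not called, and the median was 0.43. All groups carry the same strain label, and whether counts of pseudogenes stem from their parent genes was not tested.

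All 5 listed X- and Y-linked genes fell, with a median of -11.19 (-7.31 with members at 0 set to their bound). *Xist*, the RNA of the inactive X chromosome, had 161 and 98 counts against 18478 and 26694 (-7.57 ± 0.29), and *Ddx3y* of the Y chromosome had none against 885 and 151 (at least 179-fold lower, or 56.7-fold without Fetal-Liver replicate 1 and 301-fold without replicate 2). Both Fetal-Liver libraries thus held *Xist* and Y-linked RNA, in unequal amounts, while 2D-iHepSC held no *Ddx3y* and little *Xist*.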

How the data were processed

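Total RNA of 14 mouse libraries was sequenced by the authors as paired-end reads. Per the labels, reads were trimmed with Trimmomatic 0.36, and HISAT2, Cufflinks and HTSeq were used on build mm10. Other versions, the use of strand and the handling of multi-mapped reads are not given in the sources used here. The authors deposited whole-number counts per gene symbol, which were treated as raw counts, and 0 columns of per-sample values were left unused. Groups came from the labels.

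The 2 libraries of 2D-iHepSC and the 2 of Fetal-Liver were fitted alone in edgeR 4.0.16 (R 4.3.3) with TMM scaling, a mean log2(count + 1) of at least 3, the quasi-likelihood test and Benjamini-Hochberg adjustment over 14893 genes at 0.05. The biological coefficient of variation was 7.62%. The test was checked on simulated counts. Between libraries of a group the chi-square statistic per gene was 2.90 in 2D-iHepSC and 10.6 in Fetal-Liver, so no library was counted as a copy. At these depths 3 counts equal 0.0945 to 0.113 CPM, and 95% Wilson intervals of the shares reached at most 0.0106 percentage points to either side; intervals and floors cover counting error only.

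The comparison, the 35 gene lists and the rule for named genes were chosen with earlier results of these data known. Named genes are core members of each list, members with the largest change each way or none, genes with the largest change at 0 in a group, and the most abundant genes. Chosen after their values were seen were *Mest*, *Peg3*, *Plagl1*, *Grb10*, *Cdkn1c*, *Mdm2*, *Ccnd1*, *Hbegf*, *Lama5*, *Lin28b*, *Igf1*, *Apoe*, *Fga*, the 7 further genes with a TEAD motif, *Rps2-ps10*, *Rps26-ps1*, *Eno1b* and the 2 printed sequences. Results for some genes are not reported here. Positions came from GENCODE on GRCm38, which placed 27619 genes (98.6%) once. Alternatives were other filters, other scalings, DESeq2 1.42.0, a replicate block, all 14 libraries, a threshold on the fold change and each library left out.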

Additional observations from a re-analysis of the deposited data

How the results depend on the processing

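Counts of called genes stayed within 1.5 times of 5978 higher and 6414 lower under 14 of the 15 alternatives, and against a log2 fold change of 1 they were 2916 and 3732. Leaving out each library gave 5312 to 6103 higher and 5713 to 6628 lower. Upper quartile scaling shifted the median of all genes by -0.27 and gave 4831 higher and 7571 lower. Without a filter, 21029 genes were tested. Of 217 named genes, 189 had a value under all 15 alternatives and 172 of these kept their direction and side of the threshold, and of the other 28, which the filter of 5 removed, 25 did so under the remaining alternatives. With a floor of 0 counts, 279 genes were at the floor in 2D-iHepSC and high in Fetal-Liver and 22 the reverse, and with at least 50 counts 140 were the reverse. A filter of 5 turned the medians of bile acid genes (0.79 over 8), pluripotency genes (3.49 over 3) and Hox genes (1.55 over 7).

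Signs turned for 6 uncalled genes. *Igf2r* was -0.058 with a filter of 5 or library totals alone, -0.053 with all 14 libraries, -0.23 with upper quartile scaling (then called), and -0.0098 to 0.083 with 1 library left out. *Tat* was 0.018 without a filter, 0.014 with median centring and -0.32 to 0.27 with 1 library left out. Upper quartile scaling also called *Epcam* (-0.34) and *Lcn2* (-0.52). With 1 library left out *Epcam* was -0.18 to 0.037, *Lcn2* -0.50 to 0.024, *Sox9* -0.098 to 0.85 and *Cyp1a1* -1.58 to 0.50. The cause was not tested.

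The library numbers were not taken to pair libraries, since deviations of equally numbered libraries correlated at r = 0.064 over 14893 genes in 2 pairs. A replicate block gave 6101 higher and 6532 lower. With 2 libraries per group, a gene left with 1 library in a group is assumed to vary there like the other group.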
